A study of Rattus norvegicus with 2 samples.

Results

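Runx2, Sp7 and Dlx5 encode transcription factors of the bone-forming lineage, and their molecules were counted in single cells of a rat facial suture and assigned to cell types. These 3 genes were chosen by name among 22154 genes listed for either library, and each is listed for both. The distraction library came from 4-week-old rats (Rattus norvegicus) whose zygomatic maxillary suture, the joint between cheek bone and upper jaw, had been pulled apart for 7 days by a 0.4 mm nickel-titanium wire spring calibrated to 20 g. The sham library came from rats of the same age that had the holes drilled and no spring placed. How many rats each library pooled, their strain and their sex are not stated. With 1 library a group, no difference below has a replicate check, no test was made, and every interval is a 95% interval that covers counting error only.

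RUNX2 is a Runt-domain factor that binds DNA with its partner CBFB, commits mesenchymal cells to the osteoblast lineage and drives matrix genes such as osteocalcin. SP7, also called osterix, acts downstream of RUNX2 and is needed for osteoblasts to mature. DLX5 is a homeodomain factor induced by bone morphogenetic proteins that acts upstream of both in craniofacial bone. Runx2 is not restricted to bone: in mice it is also a factor of plasmacytoid dendritic cells, the interferon-producing dendritic cells, where it serves their exit from the marrow.

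Runx2 is transcribed from a distal and a proximal start, and RUNX proteins bind the letters ACCACA. The 250 bases before each start, from RefSeq on build GRCr8, are shown because RUNX2 is known to act on its own distal promoter, with ACCACA or its reverse complement TGTGGT in capitals. The distal window is chr9:23664808-23665057 on the plus strand, and the proximal window is chr9:23742990-23743239 on the plus strand.
Runx2 distal start: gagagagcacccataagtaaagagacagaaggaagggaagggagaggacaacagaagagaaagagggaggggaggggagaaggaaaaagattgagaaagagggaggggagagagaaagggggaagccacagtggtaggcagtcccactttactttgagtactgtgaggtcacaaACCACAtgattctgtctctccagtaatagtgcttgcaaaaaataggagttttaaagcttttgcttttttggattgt
Runx2 proximal start: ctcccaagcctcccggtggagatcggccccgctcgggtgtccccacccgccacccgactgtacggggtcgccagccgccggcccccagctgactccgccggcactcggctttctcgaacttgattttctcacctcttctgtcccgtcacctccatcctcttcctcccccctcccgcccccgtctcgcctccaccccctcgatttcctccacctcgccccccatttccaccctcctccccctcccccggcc
The distal window held 1 match, ACCACA at -76 to -71 from the start, and had 45.6% G and C. In the proximal window neither spelling occurred among bases of which 70.0% were G or C. Both spellings were searched on the plus strand, which covers both strands, and they do not overlap each other. Of 33469 RefSeq windows of 250 bases, 14.5% held at least 1 match, so the letters alone are common. The counts do not tell which start was used.

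After filtering, 4032 distraction cells with 31154353 molecules (UMIs) and 5182 sham cells with 29478647 UMIs were kept, with medians of 4156.5 and 3032.5 UMIs per cell. Each cell was put into the marker gate whose listed genes it held in the highest share, if it held at least 3 of them, and none of the 3 transcription factors was a marker. Most cells were blood and marrow cells: B-lineage-gated cells numbered 1468 in distraction and 3174 in sham, and neutrophil-gated cells 1202 in distraction and 758 in sham. Cells of the osteoblast, fibroblast and mural gates, together called stromal here, numbered only 78 in distraction and 52 in sham. Markers of a second cell family, at 3 or more genes, were found in 359 distraction cells (8.90%) and 400 sham cells (7.72%). These mixed cells kept their gate, and 22 barcodes occurred in both libraries.

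The markers that define the osteoblast gate were unevenly found in it, and since gating used them they are a description of the cells and no separate check of the label. The osteoblast gate had Ibsp, bone sialoprotein, in all 8 distraction cells and in 20 of its 21 sham cells, and Bglap, osteocalcin, in all 8 distraction and all 21 sham cells. The osteocyte gene Mepe was in 0 of 8 distraction and 2 of 21 sham cells, Omd in 2 of 8 distraction and 4 of 21 sham cells, and Ifitm5 in 4 of 8 distraction and 13 of 21 sham cells. No cell passed the chondrocyte gate in either library.

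Most Runx2 molecules lay outside the bone-forming cells. The granulocyte progenitor gate, cells with neutrophil granule enzymes and precursor markers, held the highest share of any gate in both libraries, and the stromal gates held 12.2% in distraction and 10.1% in sham. The first place depended on the gate rule: when each cell took the commonest gate of its cluster at resolution 1, the monocyte and macrophage gate held 28.0% in distraction and 31.0% in sham, against 19.8% in distraction and 9.52% in sham for granulocyte progenitors. The stromal share stayed between 11.7% and 12.5% in distraction and between 6.76% and 11.3% in sham under the 7 other rules tried. Dlx5 was the reverse, with most of its molecules in the stromal gates. Sp7 was nearly absent from both libraries.

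Runx2 was counted at 671 UMIs in 313 distraction cells and 504 UMIs in 231 sham cells. Of these cells, 159 in distraction and 119 in sham held a single UMI, and the highest cells held 20 and 13. The gene was thus thinly detected, in 7.76% of distraction and 4.46% of sham cells.

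Granulocyte progenitor-gated cells held 201 Runx2 UMIs in distraction and 101 in sham, which is 29.96% (26.5 to 33.6) of the distraction and 20.0% (16.6 to 23.8) of the sham Runx2 UMIs. In sham, cells that passed no gate held nearly as many, 99. Of the gate's 302 Runx2 UMIs over both libraries, 175 lay in a cluster led by primary granule genes, 127 in distraction and 48 in sham. Another 33 lay in a cluster led by mast cell proteases, 6 in distraction and 27 in sham. Clusters led by Fcnb and by Defa11 held 31 each. The granulocyte progenitor-gated cells were deep, with a median of 26269 UMIs in distraction and 15968 in sham, and numbered 233 in distraction and 156 in sham. Scaled to 1000000 UMIs of the same cells (CPM), Runx2 stood at 34.3 (29.7 to 39.3) in distraction and 35.6 (28.98 to 43.2) in sham. Over all cells it stood at 21.5 (19.9 to 23.2) in distraction and 17.1 (15.6 to 18.7) in sham. The gate held 18.8% of all distraction and 9.63% of all sham UMIs. Its large share thus came with many molecules per cell and with a level above that of all cells, though below that of the fibroblast gate. The early progenitor gate, built on genes of immature blood cells such as Kit and Cd34, added 24 UMIs at 86.4 CPM in 14 distraction cells and 40 UMIs at 145 CPM in 14 sham cells. Of these early progenitor cells, 7 in each library were mixed. Over both libraries, 20 of them lay in the cluster led by mast cell proteases. Those 20 cells held 51 of the gate's 64 Runx2 UMIs, so the gate is no clean set of early progenitors. Both progenitor gates together held 33.5% of distraction and 28.0% of sham Runx2 UMIs.

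Stromal-gated cells held 82 Runx2 UMIs in distraction and 51 in sham, which is 12.2% (9.84 to 14.9) of the distraction and 10.1% (7.63 to 13.1) of the sham Runx2 UMIs. In the osteoblast gate, 8 UMIs in 8 distraction cells gave 60.9 CPM (26.3 to 120) and 27 UMIs in 21 sham cells gave 68.1 CPM (44.9 to 99.1). In the fibroblast gate, cells with collagen III and periostin, 70 UMIs in 65 distraction cells gave 85.5 CPM (66.7 to 108) and 24 UMIs in 25 sham cells gave 112 CPM (72.0 to 167). The intervals of the osteoblast and fibroblast gates overlap in each library, so no order between these gates could be read. The mural gate, cells around vessels, had 4 UMIs in 5 distraction cells and 0 UMIs in 6 sham cells.

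Plasmacytoid dendritic-gated cells had the highest Runx2 level of any gate in both libraries, although few cells passed this gate. They numbered 2 in distraction with 21 UMIs, or 534 CPM (330 to 816), and 5 in sham with 25 UMIs, or 575 CPM (372 to 848). In each library 1 of them was mixed. One distraction cell held 20 of the 21 UMIs, and one sham cell held 12 of the 25. Conventional dendritic-gated cells, which present antigen on class II molecules, had 14 UMIs at 83.3 CPM in 12 distraction cells and 15 UMIs at 59.3 CPM in 17 sham cells. Mixed cells made up 6 of the 12 and 8 of the 17. Of the gate's 29 Runx2 UMIs over both libraries, 17 lay in 6 cells of a cluster led by mast cell proteases. Another 10 lay in 21 cells of a cluster led by class II genes, so the gate is no clean set of conventional dendritic cells. The plasmacytoid gate stood above the other gates beyond counting error, and the conventional gate did not stand apart from the fibroblast gate in either library.

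B-lineage-gated cells had the lowest Runx2 level among gates of at least 50 cells in each library, though in sham the interval overlapped those of the erythroid and neutrophil gates. They held 26 Runx2 UMIs in distraction and 68 in sham, at 3.26 CPM (2.13 to 4.78) in distraction and 4.65 CPM (3.61 to 5.89) in sham. Because this gate held 25.6% of all distraction UMIs and 49.6% of all sham UMIs, it still carried 3.87% of distraction and 13.5% of sham Runx2 UMIs. Of the 94 Runx2 UMIs over both libraries in this gate, 31 lay in 7 cells that clustered with the dendritic-gated cells.

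Among the other gates, neutrophil-gated cells held 85 Runx2 UMIs at 10.9 CPM in distraction and 35 at 7.999 CPM in sham. Of this gate's 120 Runx2 UMIs over both libraries, 25 lay in 12 cells of the cluster led by mast cell proteases. Another 19 lay in 23 cells of the cluster led by class II genes, so the gate's level is not that of neutrophils alone. Monocyte and macrophage-gated cells stood at 11.4 CPM in distraction and 14.9 CPM in sham. Erythroid-gated cells stood at 8.12 CPM in distraction and 5.56 CPM in sham. The intervals of these gates overlapped within each library, except that in sham the monocyte and macrophage gate (9.66 to 22.0) lay just above the erythroid gate (2.96 to 9.51). T and NK-gated cells reached 79.9 CPM from 8 UMIs in distraction and 145 CPM from 10 UMIs in sham. Mast and basophil-gated cells had 18 UMIs at 86.4 CPM in distraction and 4 UMIs at 30.4 CPM in sham. Plasma cell-gated cells had 49 UMIs at 96.5 CPM in 32 distraction cells and 15 UMIs at 47.8 CPM in 20 sham cells. As many as 23 of the distraction cells and 10 of the sham cells carried markers of another family, and 41 of the gate's 64 Runx2 UMIs over both libraries lay in the cluster that held the plasmacytoid cells, so the gate is no clean set of plasma cells. Endothelial-gated cells had 0 UMIs in 24 distraction cells and 3 in 19 sham cells. Cells that passed no gate held 91 UMIs at 66.4 CPM in distraction and 99 UMIs at 65.7 CPM in sham, or 13.6% of distraction and 19.6% of sham Runx2 UMIs.

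**Figure D1:**
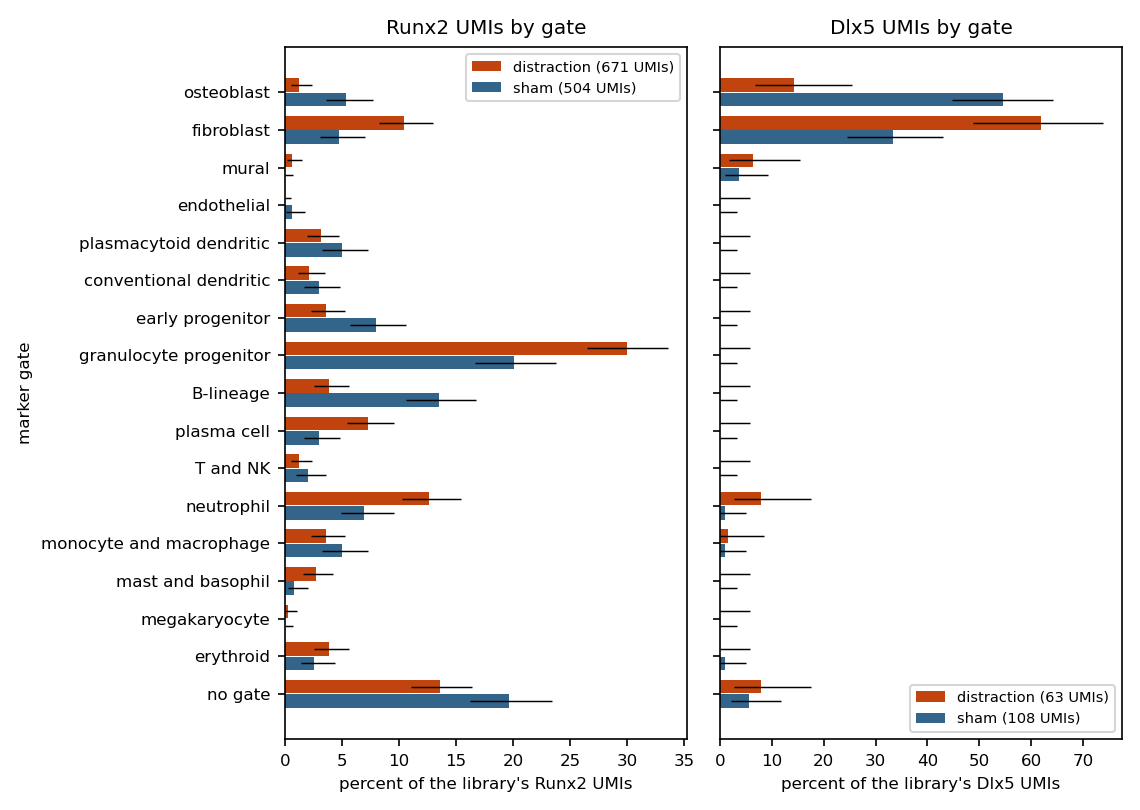
Share of each library's Runx2 UMIs (left) and Dlx5 UMIs (right) held by each marker gate, with exact binomial 95% intervals as lines, for 4032 distraction and 5182 sham cells. Granulocyte progenitor-gated cells hold the longest Runx2 bars, 29.96% in distraction and 20.0% in sham, while Dlx5 lies in the osteoblast, fibroblast and mural gates at 82.5% in distraction and 91.7% in sham.

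Free RNA can place molecules in cells that do not make them, so haemoglobin-rich erythroid cells are given as a background. The 329 cells of one haemoglobin-rich cluster, taken over both libraries, held 0 Runx2 UMIs, and the 289 cells of another held 1, or 0.935 CPM. A further erythroid cluster of 136 cells, led by the early erythroid genes Car1 and Tfr2 and deeper at a median of 16619 UMIs, held 47 UMIs at 16.0 CPM. The share of cells with a Runx2 UMI was 57.7% in distraction and 40.4% in sham for stromal-gated cells (medians of 10738 and 8266 UMIs). For erythroid-gated cells it was 2.37% in distraction and 2.15% in sham (medians of 3936 and 3882 UMIs), and this gate includes early cells: 30 of its 39 Runx2 UMIs over both libraries lay in an early erythroid cluster.

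With every cell thinned to 2000 UMIs, which left out 529 distraction and 1147 sham cells, Runx2 was found in 17.3% of 75 distraction and 12.8% of 47 sham stromal-gated cells. The same measure gave 3.17% of 221 distraction and 5.74% of 122 sham granulocyte progenitor-gated cells, and 0.406% of 1233 distraction and 0.490% of 2449 sham B-lineage-gated cells. Erythroid-gated cells gave 0.515% of 388 in distraction and 0 of 288 in sham. The stromal shares were above those of the erythroid gate in both libraries. The B-lineage shares were not told apart from those of the whole erythroid gate. The B-lineage levels were 3.26 CPM (2.13 to 4.78) in distraction and 4.65 CPM (3.61 to 5.89) in sham. The 0 and 0.935 CPM of the haemoglobin-rich clusters are lower, but rest on 0 and 1 UMIs and are given without intervals. Whether B-lineage cells exceed that background beyond counting error was not tested, and 31 of their 94 Runx2 UMIs lay in 7 cells that clustered with the dendritic-gated cells.

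Clusters built without Runx2, Sp7 and Dlx5 divided the counts more finely than the gates. Of 46 clusters, those numbered 29, 30 and 28 held the most Runx2 UMIs over both libraries. Cluster 29, led by the class II genes RT1-Da, RT1-Ba and RT1-Bb and by Irf8, held 113 UMIs at 146 CPM in 65 distraction cells and 115 UMIs at 146 CPM in 64 sham cells. It carried 16.8% of distraction and 22.8% of sham Runx2 UMIs and included dendritic-gated cells. Cluster 30, led by the mast cell proteases Mcpt1l1, Mcpt1 and Cpa3, held 107 UMIs at 109 CPM in 65 distraction cells and 118 UMIs at 142 CPM in 63 sham cells. It carried 15.9% of distraction and 23.4% of sham Runx2 UMIs. Its cells included 20 of the granulocyte progenitor and 20 of the early progenitor gate, and 53 passed no gate. Cluster 28, led by the primary granule genes Elane, Ctsg, Prtn3 and Mpo, held 133 UMIs at 42.0 CPM in 87 distraction cells and 48 UMIs at 34.4 CPM in 43 sham cells, or 19.8% of distraction and 9.52% of sham Runx2 UMIs.

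The bone and fibroblast clusters held fewer Runx2 molecules than these. Cluster 34, led by Col3a1, Postn and Tnn, held 67 UMIs at 83.2 CPM in 63 distraction cells and 20 UMIs at 113 CPM in 20 sham cells. Cluster 41, led by Bglap, Col11a2 and Ibsp, held 12 UMIs at 70.1 CPM in 12 distraction cells and 28 UMIs at 61.7 CPM in 26 sham cells. A lymphoid cluster with Ccl5 and Gzmk, cluster 37, stood at 90.9 CPM from 24 UMIs in distraction and 126 CPM from 25 UMIs in sham. In distraction the interval of cluster 29 (120 to 175) lay above that of cluster 34 (64.4 to 106) and overlapped that of cluster 41 (36.2 to 122). In sham it (121 to 175) lay above that of cluster 41 (41.0 to 89.2) and overlapped that of cluster 34 (68.95 to 174).

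The clusters also account for the molecules outside any gate. Of the 190 Runx2 UMIs over both libraries in cells that passed no gate, 84 lay in cluster 30 and 57 in cluster 29. The next highest number among them was 11, in cluster 37.

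Within cluster 29 the Runx2 molecules followed Siglech, a surface lectin of plasmacytoid dendritic cells and 1 of the 9 markers of that gate. This split was chosen after the values had been seen. Cells with at least 1 Siglech UMI held 86 Runx2 UMIs at 368 CPM (294 to 454) in 22 distraction cells and 58 UMIs at 347 CPM (264 to 449) in 18 sham cells. Cells without Siglech held 27 UMIs at 49.9 CPM (32.9 to 72.5) in 43 distraction cells and 57 UMIs at 91.9 CPM (69.6 to 119) in 46 sham cells. The intervals of the cells with and without Siglech do not overlap in either library. Runx2 was found in 81.8% of the Siglech cells in distraction and 72.2% in sham. These 40 cells, over both libraries, held 12.8% of all distraction and 11.5% of all sham Runx2 UMIs, about the share of the stromal gates. They were also high in Irf8, a factor of dendritic cells, at 2061 CPM in distraction and 2551 CPM in sham, against 131 CPM in distraction and 419 CPM in sham for cells of the cluster without Siglech.

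**Figure D2:**
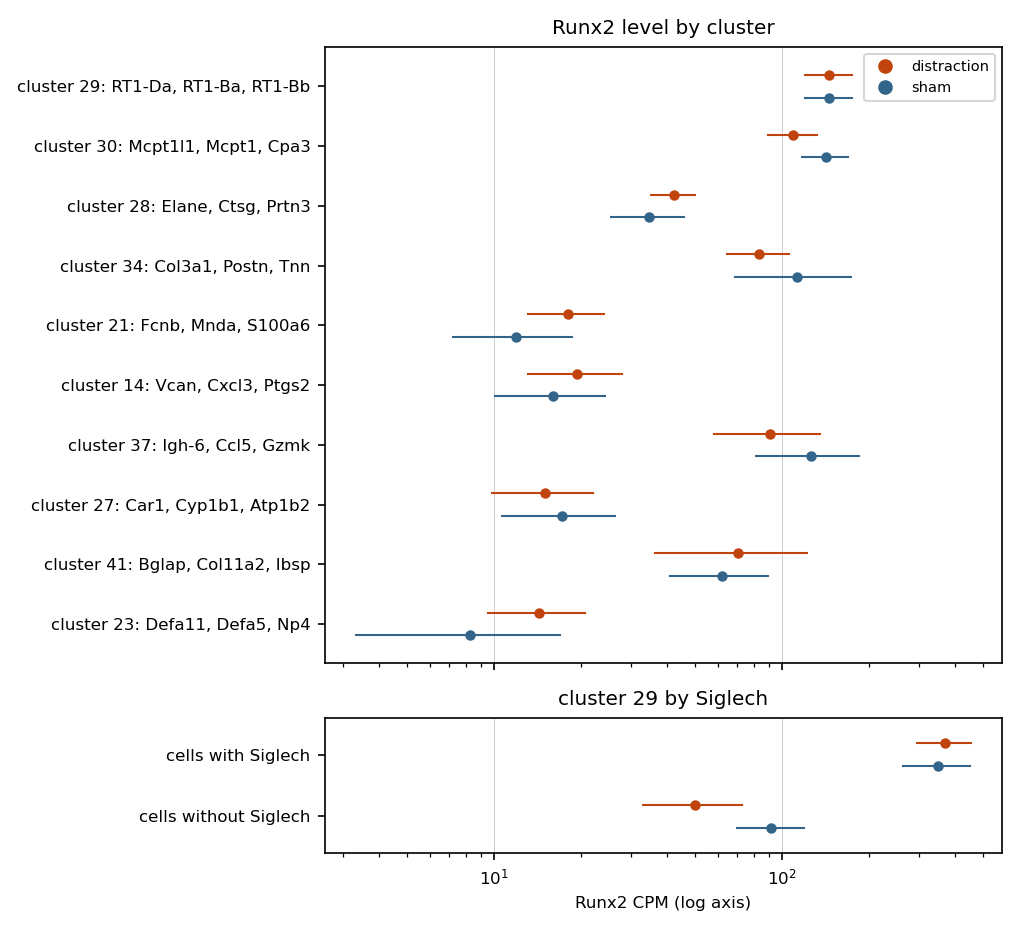
Runx2 level in CPM on a log axis, with exact Poisson 95% intervals, in the clusters with 30 or more Runx2 UMIs (top, ordered by UMIs) and in cluster 29 divided by Siglech (bottom), distraction above sham in each pair. Cells with Siglech stand at 368 CPM in distraction and 347 CPM in sham, to the right of every cluster drawn.

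Over all cells Runx2 stood at 21.5 CPM (19.9 to 23.2) in distraction and 17.1 CPM (15.6 to 18.7) in sham, a ratio of 1.26 (1.12 to 1.42). A gene was called when its ratio was 1.5 or more either way and the counting interval lay on 1 side of 1, among genes with at least 30 UMIs, and 20.3% of 12935 genes were called over all cells. Runx2 was not called, Dlx5 was called lower, as were 13.1% of genes, and Sp7 had too few UMIs, so 1 of the 3 was called. The libraries also differed in make-up, and its part in the ratio was not tested beyond an arithmetic exchange of levels and make-up between them: with sham levels in every gate but the distraction make-up, the expected level was 21.5 CPM, which is 1.26 times the sham level. With distraction levels and the sham make-up it was 16.7 CPM, or 0.978 times the sham level. Thinned to 2000 UMIs a cell, the ratio over all cells was 1.07 (0.780 to 1.47).

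Within gates of at least 50 cells in each library, Runx2 was called in none, but other settings gave calls in the neutrophil and progenitor gates. In stromal-gated cells it stood at 83.2 CPM (66.2 to 103) in distraction and 79.9 CPM (59.5 to 105) in sham, a ratio of 1.04 (0.726 to 1.51), where 30.9% of 5101 genes were called. Mixed cells made up 25 of the 78 distraction and 9 of the 52 sham stromal-gated cells, and without them the ratio was 1.52 (0.922 to 2.56). In the 2 progenitor gates together the ratio was 0.809 (0.652 to 1.01), where 11.8% of 8736 genes were called, with 0.372 (0.142 to 0.923), called lower, after thinning and 1.23 (0.881 to 1.76) by the gate of the cluster at resolution 1. It was 0.963 (0.755 to 1.24) in granulocyte progenitor-gated cells, where 11.5% of genes were called, and 1.01 (0.752 to 1.36) in cells that passed no gate, where 13.1% were. Neutrophil-gated cells gave 1.37 (0.913 to 2.09), with 7.5% of genes called. There Runx2 was called higher when a marker needed 2 UMIs (1.94) and by the gate of the cluster at resolution 1 (1.84), and was 0.752 after thinning. B-lineage-gated cells gave 0.702 (0.429 to 1.12), with 4.38% called. Monocyte and macrophage-gated cells gave 0.763 (0.417 to 1.39), with 7.86% called, and erythroid-gated cells 1.46 (0.724 to 3.09), with 9.15% called. Several of these intervals reach past 1.5-fold, so the lack of a call does not show equal levels. The plasma cell gate, with under 50 cells in each library and the mixed cells named above, had a ratio of 2.02 (1.11 to 3.87), past the same limit that 9.44% of genes there passed upwards.

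Dlx5 marked the stromal cells. It was counted at 63 UMIs in 35 distraction cells and 108 UMIs in 27 sham cells. Stromal-gated cells held 52 of these UMIs in distraction and 99 in sham, or 82.5% (70.9 to 91.0) of distraction and 91.7% (84.8 to 96.1) of sham Dlx5 UMIs. No Dlx5 UMI fell in the B-lineage, dendritic, progenitor, plasma cell or T and NK gates of either library. For 1468 distraction and 3174 sham B-lineage-gated cells, that count of 0 allows a share of cells with a UMI of up to 0.204% in distraction and 0.0945% in sham. Of the rest, 5 UMIs in distraction and 1 in sham were in neutrophil-gated cells, 5 in distraction and 6 in sham were in cells that passed no gate, 1 in each library was in a monocyte or macrophage-gated cell and 1 in sham was in an erythroid-gated cell.

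Relative to all stromal UMIs, Dlx5 was lower in the distraction library. It stood at 52.8 CPM (39.4 to 69.2) in 78 distraction cells and 155 CPM (126 to 189) in 52 sham cells, a ratio of 0.340 (0.238 to 0.481), where 8.82% of genes were called lower. The osteoblast gate made up 8 of these distraction cells and 21 of these sham cells, so the stromal sets differ in make-up. Within the fibroblast gate alone, Dlx5 had 39 UMIs at 47.6 CPM in 65 distraction cells and 36 UMIs at 169 CPM in 25 sham cells, a ratio of 0.282 (0.175 to 0.457), where 18% of genes were called and 6.75% were called lower. In the osteoblast gate it had 9 UMIs at 68.5 CPM in distraction and 59 UMIs at 149 CPM in sham, a ratio of 0.460 (0.201 to 0.934). A single cell decided that osteoblast value: without the highest cell of each library it was 45.8 CPM in 7 distraction cells and 63.0 CPM in 20 sham cells, a ratio of 0.727 (0.217 to 1.94), which was not called. The fibroblast ratio was 0.374 (0.208 to 0.687) without the highest cells and 0.468 (0.237 to 0.948) without mixed cells, and 0.835 (0.233 to 3.71), not called, after thinning to 2000 UMIs a cell.

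Single cells weigh heavily in the Dlx5 counts. One sham osteoblast-gated cell held 35 of the 108 sham UMIs (32.4%), and the 10 highest cells held 54.0% of distraction and 82.4% of sham Dlx5 UMIs. Without the highest cell of each library the stromal ratio was 0.468 (0.313 to 0.694), while over all cells the ratio of 0.552 (0.398 to 0.760), from 2.02 CPM in distraction and 3.66 CPM in sham, became 0.739 (0.513 to 1.06) and was no longer called. The share of stromal cells with a Dlx5 UMI was 37.2% (26.5 to 48.9) in distraction and 40.4% (27.0 to 54.9) in sham. Those intervals overlap, so the lower level was not seen as a lower share of cells.

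Runx2 and Dlx5 were found together in part of the stromal cells. Of the 78 distraction cells, 19 held both, 26 held Runx2 without Dlx5, 10 held Dlx5 without Runx2 and 23 held neither. Of the 52 sham cells, 11 held both, 10 held Runx2 without Dlx5, 10 held Dlx5 without Runx2 and 21 held neither. Every distraction cell with both UMIs was stromal-gated, 19 of 19 over all cells, and 11 of 14 were in sham. Detection of both depends on how deeply a cell was read.

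Sp7 was counted once in each library. Both UMIs were in granulocyte progenitor-gated cells with 14167 UMIs in distraction and 31262 UMIs in sham, the sham cell was mixed, and neither held Runx2 or Dlx5. None was found in stromal-gated cells, which allows a share of cells with an Sp7 UMI of up to 3.85% in distraction and 5.77% in sham. In the osteoblast gate the limit is only 37.5% of 8 distraction cells and 14.3% of 21 sham cells. As a level, the same limit there is 22.8 CPM in distraction and 7.57 CPM in sham. Runx2 in that gate stood at 60.9 CPM (26.3 to 120) in distraction and 68.1 CPM (44.9 to 99.1) in sham. These counts do not show that osteoblasts lacked Sp7 RNA.

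The RUNX relatives and their partner are given gate by gate. Runx1, a factor of blood stem and progenitor cells, was found in nearly every gate, at 82.9 CPM in distraction and 94.8 CPM in sham over all cells. In the fibroblast gate it stood at 192 CPM in distraction and 197 CPM in sham. In the B-lineage gate it stood at 86.3 CPM in distraction and 98.3 CPM in sham. In the plasmacytoid dendritic gate, where Runx2 was highest, Runx1 stood at 50.8 CPM (6.16 to 184) from 2 UMIs in 2 distraction cells. In the 5 sham cells of that gate it had 0 UMIs, which allows up to 69.0 CPM, so its absence is not shown. Runx3, a factor of lymphocytes and dendritic cells, had its highest sham level in that gate. It stood at 76.2 CPM (15.7 to 223) from 3 UMIs in distraction and 184 CPM (79.4 to 362) from 8 UMIs in sham. In the fibroblast gate Runx3 stood at 6.11 CPM in distraction and 0 in sham. Cbfb, the shared partner, stood at 321 CPM in distraction and 325 CPM in sham B-lineage-gated cells, where Runx2 was low. Neither Runx1 (ratio 1.05) nor Cbfb (ratio 1.32) was called in the stromal gates, and Runx3 had only 5 UMIs there in distraction and 2 in sham.

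**Figure D3:**
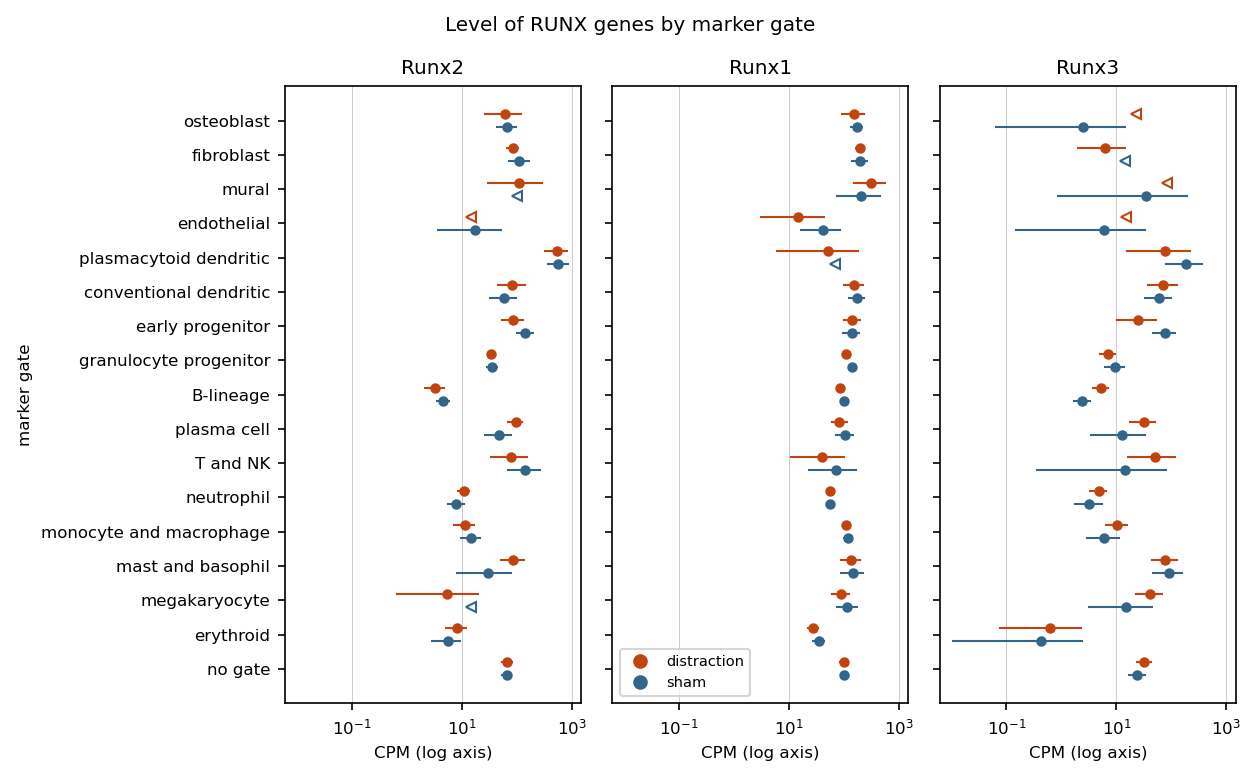
Level of Runx2, Runx1 and Runx3 in CPM on log axes by marker gate, with exact Poisson 95% intervals, distraction above sham in each pair. An open triangle marks a gate with 0 UMIs and is drawn at the level that 3 UMIs would give. Runx2 is highest in the plasmacytoid dendritic gate, at 534 CPM in distraction and 575 CPM in sham.

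Likeness to Runx2 was measured over 19 pools of a gate and a library, each of 20 or more cells. Pearson's r of log2(CPM + 1) was 0.85 for Surf4 and 0.85 for Prrc1, then between 0.82 and 0.77 for Plpp5, Serf1, Vegfa, Ssr4, Reep5, Sec61a1, Runx1 and Ostc, out of 10853 genes. Surf4 is a cargo receptor and Sec61a1 and Ssr4 belong to the translocon of the endoplasmic reticulum. Dlx5 ranked 284 with r of 0.52, Bglap had 0.43 and Irf8 had -0.30. The pools share libraries and differ in depth. Both dendritic gates and the early progenitor, T and NK, mural, megakaryocyte and osteoclast gates had too few cells and were not among them. The osteoblast gate entered from sham only, and the endothelial and the mast and basophil gates from distraction only.

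Genes tied to the 3 factors were described as lists in stromal-gated cells, beside a median log2 ratio of 0.28 over all genes there. Of all genes there, 22.1% were called higher and 8.82% lower. Of 14 bone matrix and mineralisation genes, 13 had enough counts, 11 were called lower in distraction and 1 higher, and their median log2 ratio was -1.34. Ibsp stood at 381 CPM in distraction and 2344 CPM in sham (ratio 0.163), Bglap had a ratio of 0.295 and Col1a1, the main collagen of bone, 0.488. The osteocyte genes Dmp1 and Phex had ratios of 0.0290 and 0.0277. Mgp, an inhibitor of mineralisation, was the gene called higher, with a ratio of 1.92. Of these genes Ibsp, Bglap, Dmp1, Phex, Mepe, Smpd3 and Ifitm5 are also osteoblast gate markers, and the distraction set held fewer osteoblast-gated cells, 8 of 78 against 21 of 52 in sham. The part of that make-up in this list, and in the further lists of stromal-gated cells below, was not tested.

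Runx2, with its ratio of 1.04, was not among the genes that were lower. Of 13 other skeletal transcription factors, 7 had enough counts, and 2 were called higher and 1 lower, beside 22.1% and 8.82% of all genes. Msx1 and Twist1, homeobox and helix-loop-helix factors of suture mesenchyme, were higher with ratios of 3.20 and 1.77. Dlx3, which acts in osteoblasts, was lower with a ratio of 0.197. The median log2 ratio of this list was 0.30.

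Of 12 BMP and Wnt signal genes, 6 had enough counts, 4 were called lower and 0 higher, beside 8.82% and 22.1% of all genes. Bmp2, an osteogenic ligand, stood at 263 CPM in distraction and 1650.2 CPM in sham with a ratio of 0.159, and Bmp4, Smad5 and Lrp5 had ratios of 0.555, 0.648 and 0.497. Of 8 genes for repressors and turnover of RUNX2, 6 had enough counts and 2 were called higher, beside 22.1% of all genes. They were Zfp521 and Tle1, both repressors, with ratios of 2.74 and 2.30. Class II genes, which belong to antigen-presenting cells, had 1 of 6 with enough counts, and Cd74 was called higher there at 107 CPM in distraction and 18.8 CPM in sham. The part of the mixed cells in this, 25 of 78 in distraction and 9 of 52 in sham, was not tested.

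**Figure D4:**
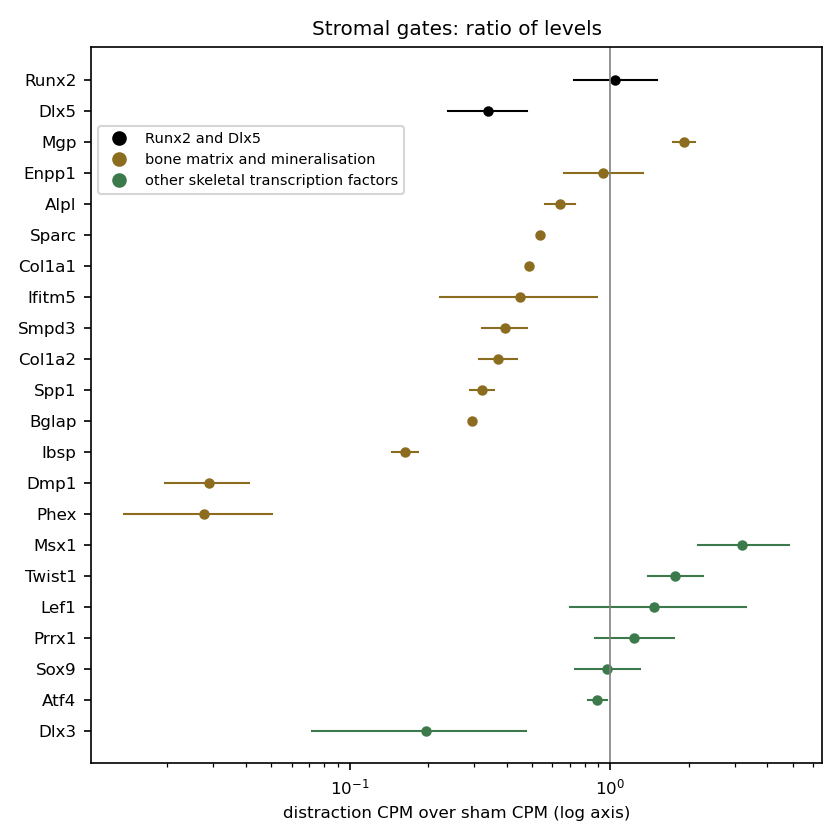
Ratio of the distraction level over the sham level on a log axis, with exact 95% counting intervals, in 78 distraction and 52 sham stromal-gated cells, for Runx2 and Dlx5, bone matrix genes and other skeletal transcription factors with 30 or more UMIs. Runx2 lies at 1.04 and Dlx5 at 0.340, and bone matrix genes from Alpl downwards lie left of 1.

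In the plasmacytoid dendritic gate, where the Runx2 level was highest, the lists read otherwise. Irf8 stood at 1525 CPM in distraction and 3931 CPM in sham. Bcl11a, Tcf4 and Spib, further factors of that cell type, were present in both libraries, at 127, 76.2 and 50.8 CPM in distraction and 230, 276 and 276 CPM in sham. The class II genes RT1-Da, Cd74, RT1-Ba and RT1-Db1 ran between 152 and 483 CPM in distraction and 782 and 2322 CPM in sham. Of the bone matrix list, Alpl had the highest level, at 50.8 CPM in distraction and 230 CPM in sham, and Col1a1 stood at 25.4 CPM in distraction and 92.0 CPM in sham, against 69963 CPM in distraction and 143434 CPM in sham stromal cells. Of the other skeletal factors only Atf4, which most cells express, was found among the 4 highest, at 1245 CPM in distraction and 1310 CPM in sham. Smad5, Wnt10b and Smad1 of the BMP and Wnt list and Smurf2, Stub1 and Smurf1 of the repressor list each stood at 115 CPM or below in both libraries. With 2 distraction and 5 sham cells, 1 UMI in this gate is worth 25.4 CPM in distraction and 23.0 CPM in sham, so these low levels rest on few molecules.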

How the data were processed

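Single cells of 2 rat suture libraries were counted on the BD Rhapsody platform. Per the file headers, the authors deposited unscaled molecule counts, whole numbers per cell and gene, made by version 1.5.1 of the BD WTA Rhapsody Analysis Pipeline. The build Rnor_6.0 and Seurat 3.6 are named in the submitters' processing notes. Use of strand in counting is not stated. Supt3h, which overlaps Runx2 in RefSeq, was not analysed here, and reads of overlapping genes cannot be told apart without strand.

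Cells with at least 500 UMIs, 200 genes and under 25% mitochondrial UMIs were kept. The distraction library held 4889 cells with 32078960 UMIs and the sham library 5351 cells with 29924342 UMIs before this filter. Scrublet in scanpy 1.11.5 marked 5 distraction and 1 sham cell, 0.0651% of 9220, and was taken not to have worked; the marked cells were removed and other doublets remain. Cells were gated on 18 marker lists, 3 markers or more. Leiden clusters (leidenalg 0.10.2, resolution 3, 2000 variable genes, 30 components, 15 neighbours, seed 1) were built without Runx2, Sp7 and Dlx5, and resolution 1, with 28 clusters, gave the erythroid clusters. CPM is summed UMIs per 1000000. Intervals are exact Poisson for CPM, Clopper-Pearson for shares and conditional binomial for ratios (scipy 1.17.1), at 95%. A count of 0 is read as up to 3 counts. The ratio calculation was tested on simulated Poisson counts without spread between cells, so that check does not cover molecules gathered in single cells.

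The members, gates and lists were chosen with earlier results of these data known. Named genes are the 3 members, Runx1, Runx3 and Cbfb, the 10 genes most like Runx2, and up to 4 genes of each list with the highest CPM in the gate with the highest Runx2 CPM. The list genes named in stromal cells, the clusters and the Siglech split were chosen after their values were seen. One gene of the list of other skeletal transcription factors is not reported here and was left out of its counts and median.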

Additional observations from a re-analysis of the deposited data

Results flagged for a closer look

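The cells removed by the filter, which enter no comparison, held Runx2 in the sham library. The 169 removed sham cells, with a median of 57.2% mitochondrial UMIs, held 8 Runx2 UMIs in 6 cells, or 17.9 CPM (7.75 to 35.4), which is above the limit of 3 that a count of 0 allows. The 857 removed distraction cells, with a median of 77.7% mitochondrial UMIs, held 3 Runx2 UMIs in 2 cells, or 3.24 CPM (0.669 to 9.48).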

How the results depend on the processing

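No paired analysis was possible because each group has 1 library, and for the same reason no replicate could be left out. The Runx2 ratio over all cells lay between 1.07 (thinned to 2000 UMIs) and 1.26 and was called under none of the 6 alternatives. In stromal gates it was 1.52 without mixed cells and 1.67 after thinning, and was called under none. The Dlx5 ratio in stromal gates was called lower under all 10 alternatives, between 0.321 and 0.468; over all cells it was not called without the highest cell (0.739) or after thinning (0.745).

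The shares of Runx2 UMIs depended on the gate rule. Cells that passed no gate held 31.0% in distraction and 47.0% in sham with 4 markers, 34.4% in distraction and 52.4% in sham with a marker needing 2 UMIs, and 35.5% in distraction and 48.8% in sham by cluster gate at resolution 3, against 13.6% in distraction and 19.6% in sham. The stromal share in sham was 6.76% without mixed cells. The dendritic share was 2.98% in distraction and 3.37% in sham with 4 markers, 0.596% in distraction and 0% in sham with a marker needing 2 UMIs, 3.50% in distraction without mixed cells, and 0% in both libraries when a cell took the gate of its cluster at either resolution, since no cluster took a dendritic gate. The progenitor share was 29.96% in distraction and 20.6% in sham with 4 markers, 28.9% in distraction and 19.8% in sham with a marker needing 2 UMIs, 19.8% in distraction and 9.52% in sham by cluster gate at resolution 1, and 24.0% in distraction and 10.9% in sham at resolution 3. Genes called in stromal gates fell to 837 with a minimum of 100 counts, against 1575. The Runx2 ratio in progenitor gates was 1.29 by cluster gate at resolution 3. Leaving out the highest cell, leaving out mixed cells over all cells and the gates at resolution 3 were chosen after seeing the data. Counting depth limits Sp7 and the small gates.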
